A study of Homo sapiens with 12 samples.

Results

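Aminoacyl-tRNA synthetases are the enzymes that join each amino acid to its transfer RNA. They were chosen here by gene symbol alone, as 1 letter followed by ARS with an optional 1 or 2, plus EPRS1, FARSA and FARSB. The rule found 35 of the 18132 genes measured on the array. No expression value entered the rule, but earlier results of these data were known when the members were chosen. Of the 35, 17 encode cytosolic enzymes, 16 encode mitochondrial enzymes, and GARS1 and KARS1 each serve both compartments. RNA came from BE(2)-C and Kelly, both human neuroblastoma cell lines with extra copies of the MYCN oncogene. Each line received JQ1, a small molecule that displaces BET bromodomain proteins from acetylated chromatin, at 1 µM for 24 h, or DMSO, the solvent, alone. The 4 groups, BE(2)-C with JQ1, BE(2)-C with DMSO, Kelly with JQ1 and Kelly with DMSO, held 3 arrays each, and the labels name no other agent or genetic change. The labels do not say that the 3 samples of a group came from separate cultures, so the p-values measure only how these samples vary, and that variation may be technical.

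Every synthetase is encoded in the nucleus, and the mitochondrial enzymes are made in the cytosol and imported. Most amino acids have a separate gene for each compartment, and several cytosolic enzymes are bound together with scaffold proteins in the multi-synthetase complex. The family supplies protein synthesis in growing cells, several of its cytosolic members are known targets of ATF4, the transcription factor of the amino acid response, and MYC proteins are known activators of genes for ribosomes and translation.

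Levels are log2 intensities of the brightest probe set of each gene, and are compared between samples and not between genes. The arrays had median intensities of 61.4 to 67.3 and correlated at 0.952 to 0.996 within a group and 0.88 to 0.986 between groups. The group means of 6 sympathetic neuroblast markers lay between 7.35 and 13.1, those of 4 haematopoietic markers between 3.84 and 5.57, and those of 4 Schwann cell or fibroblast markers between 4.5 and 7.4. Those of 5 epithelial markers lay between 4.12 and 8.17, with KRT19 the highest. Some markers changed with JQ1 (limma, adjusted p under 0.05). The catecholamine enzyme genes TH and DBH and the epithelial keratin KRT19 were lower in both lines, the fibroblast marker DCN was lower in BE(2)-C, at -1.88, and PDGFRB was lower in Kelly, at -0.73. KRT19 stood at 6.87 with JQ1 and 8.17 with DMSO in BE(2)-C, and at 5.83 and 7.20 in Kelly, and DCN at 4.97 with JQ1 and 6.84 with DMSO in BE(2)-C. The other epithelial markers, EPCAM, CDH1, KRT5 and KRT14, had group means between 4.12 and 5.62, and none of them passed in either line. The neuroblast transcription factor genes PHOX2A and GATA3 were higher in BE(2)-C. The part of these changes in the synthetase results was not tested. In cultures measured in bulk, fewer cells of a type and less RNA per cell cannot be told apart. The signal of the bacterial transcripts added as hybridization controls lay between 9.94 and 13.65 on the log2 scale over the 12 arrays. It averaged 11.4 ± 1.2 with JQ1 and 11.2 ± 1.54 with DMSO in BE(2)-C, and 12.9 ± 0.691 with JQ1 and 11.9 ± 1.29 with DMSO in Kelly (SD, n = 3 each). The 3′ minus 5′ probe signal of ACTB, which grows as RNA is degraded or copied short of its 5′ end, was 0.89 ± 0.09 with JQ1 and 0.91 ± 0.31 with DMSO in BE(2)-C, and 1.71 ± 0.50 with JQ1 and 1.67 ± 0.50 with DMSO in Kelly (log2, SD, n = 3 each). It was highest in the third replicates of Kelly, 2.24 with JQ1 and 2.22 with DMSO.

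In Kelly, 2 of the 35 synthetases passed the threshold for JQ1 against DMSO, an adjusted p under 0.05 in the limma fit over all genes, and both were lower and mitochondrial. They were YARS2, which charges mitochondrial tRNA with tyrosine, and FARS2, which charges it with phenylalanine. Over all genes 6.5% passed in this comparison, 4.73% as lower and 1.76% as higher. None of the 17 cytosolic enzymes passed.

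YARS2 had log2 intensities of 8.79, 8.52 and 7.61 in the 3 Kelly arrays with JQ1, against 9.89, 9.99 and 9.27 in the 3 with DMSO. Every JQ1 array lay below every DMSO array, and replicate 3 was the lowest of its group in both. The log2 fold change was -1.41 (0.32 SE), a 2.65-fold lower level (limma, adjusted p = 0.0184). FARS2 had 7.48, 6.997 and 6.23 with JQ1, against 8.46, 8.49 and 7.64 with DMSO. The FARS2 groups did not overlap either, and replicate 3 was again the lowest in each. Its log2 fold change was -1.29 (0.33 SE), a 2.45-fold lower level (limma, adjusted p = 0.0355). Both calls were lost on leaving out single arrays. The YARS2 call was lost in 4 of 22 other settings. Without Kelly DMSO replicate 1, Kelly DMSO replicate 2 or Kelly JQ1 replicate 3 its estimates were -1.32, -1.27 and -1.06 (limma, adjusted p = 0.0848, 0.079 and 0.0634). The FARS2 call was lost in 10 of 22 other settings and kept on leaving out 4 of the 12 arrays. Without the same 3 arrays its estimates were -1.16, -1.15 and -0.96 (limma, adjusted p = 0.147, 0.139 and 0.131), and without Kelly JQ1 replicate 2 the estimate was -1.34 (adjusted p = 0.0852). It was also lost without BE(2)-C DMSO replicate 2 or any 1 BE(2)-C JQ1 array (adjusted p between 0.0523 and 0.0574), and with the mean of its probe sets (-1.05, adjusted p = 0.0567).

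**Figure D1:**
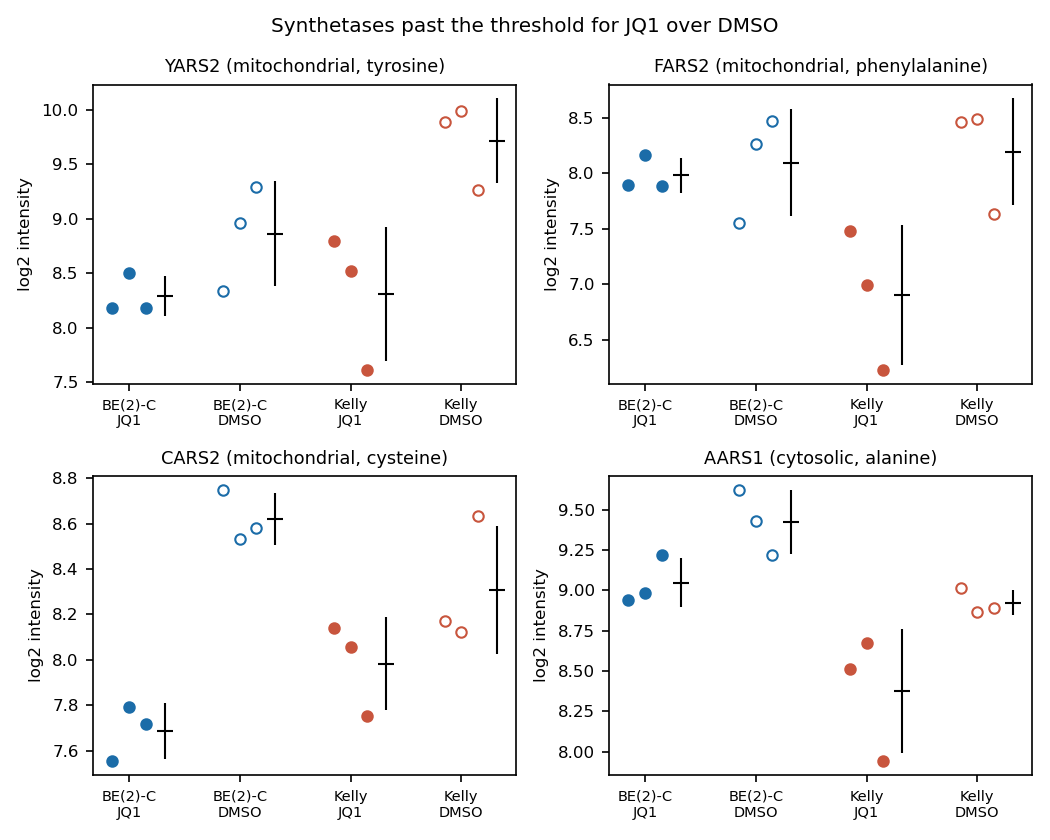
Log2 intensity of YARS2, FARS2, CARS2 and AARS1 in each array, by group (points, JQ1 filled and DMSO open), with the group mean and SD (black bar, n = 3). YARS2 and FARS2 are lower with JQ1 in every Kelly array than in any Kelly DMSO array, and CARS2 is lower with JQ1 in every BE(2)-C array than in any BE(2)-C DMSO array.

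The family as a whole had mostly negative estimates in Kelly, of which only these 2 passed. The log2 fold change was below 0 in 30 of 35 members, beside 40.6% of all genes, and the median was -0.33, beside 0.08 over all genes. The count was 15 of 17 for the cytosolic enzymes, 2 of 2 for those of both compartments and 13 of 16 for the mitochondrial enzymes. Estimates ranged from -1.41 for YARS2 to 0.27 for MARS2, the mitochondrial methionine enzyme. At an unadjusted p under 0.05 there were 9 members, all lower, beside 22.5% of all genes, 12.2% as lower. In 6 members every JQ1 array lay below every DMSO array and in 0 did every JQ1 array lie above, beside 11.6% and 12.1% of all genes. Besides YARS2 and FARS2 the 6 were AARS1, HARS1, IARS1 and LARS2, which charge alanine, histidine and isoleucine in the cytosol and leucine in mitochondria.

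IARS1 illustrates these smaller shifts. It read 10.86, 10.80 and 10.62 with JQ1 and 11.61, 11.63 and 10.86 with DMSO in Kelly. The highest JQ1 array and the lowest DMSO array both stood at 10.86, and the log2 fold change of -0.61 (0.22 SE) had adjusted p = 0.13 (limma). HARS1 read 9.93, 9.85 and 8.88 with JQ1 and 10.16, 10.22 and 10.09 with DMSO, with JQ1 replicate 3 far below the other 5 arrays and an estimate of -0.60. The hybridization control signal was higher with JQ1 than with DMSO in all 3 same-numbered Kelly pairs, and over the 12 arrays its slope was negative in 16 of the 17 synthetases in which it passed the threshold. Of all genes 53.4% passed for this slope, beside 48.6% of the members, and the all-gene slopes that passed were negative in 4081 genes and positive in 5610. The median slope was -0.16 per log2 unit over the members and 0.06 over all genes. For YARS2 the slope was -0.305 and for FARS2 -0.321, and both passed (limma, adjusted p = 0.00248 and 0.00237). When the control signal was added to the model as a covariate, the members' median in Kelly was -0.20 and 3 members passed as lower, YARS2, FARS2 and LARS2, beside 12.6% of all genes in either direction under that model. Quantile normalization gave a median of -0.16, with 26 of 35 members below 0.

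In BE(2)-C, 1 of 35 synthetases passed for JQ1 against DMSO. It was CARS2, the mitochondrial cysteine enzyme, and it was lower. Over all genes 4.69% passed in BE(2)-C, 2.51% as lower and 2.18% as higher. CARS2 had log2 intensities of 7.55, 7.79 and 7.72 with JQ1, against 8.75, 8.53 and 8.58 with DMSO. The 3 JQ1 arrays lay close together and well below the 3 DMSO arrays. The log2 fold change was -0.93 (0.18 SE), a 1.91-fold lower level (limma, adjusted p = 0.00889). The call was kept in 21 of 22 other settings and lost without BE(2)-C JQ1 replicate 1 (adjusted p = 0.0578). The slope of CARS2 on the control signal was 0.06 per log2 unit and did not pass (limma, adjusted p = 0.37).

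The family was spread to both sides of 0 in BE(2)-C. The log2 fold change was below 0 in 21 of 35 members, beside 51.6% of all genes, and the median was -0.12, beside -0.01 over all genes. Of the cytosolic enzymes 11 of 17 were below 0, and of the mitochondrial enzymes 8 of 16. The groups were separated with JQ1 lower in 7 members and with JQ1 higher in 4, beside 10.7% and 11.5% of all genes. The 7 were CARS2 with FARSA and FARSB, the 2 subunits of the cytosolic phenylalanine enzyme, the cytosolic MARS1 and YARS1, and the mitochondrial AARS2 and TARS2. The 4 were QARS1 and WARS1, which charge glutamine and tryptophan in the cytosol, and the mitochondrial PARS2 and SARS2, which charge proline and serine. PARS2 was dim, at a mean level of 5.55, and its lowest JQ1 array read 5.712 against 5.703 in its highest DMSO array. In BE(2)-C the dimmer probe sets of PARS2 and SARS2 had -0.145 and -0.212. That of QARS1 had 0.211, and those of WARS1 had 0.142, 0.225 and -0.045. AARS2, the mitochondrial alanine enzyme, came nearest to the threshold. It read 7.62, 7.498 and 7.67 with JQ1 and 8.64, 8.13 and 8.12 with DMSO, and its log2 fold change of -0.70 (0.19 SE) had adjusted p = 0.0588 (limma).

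**Figure D2:**
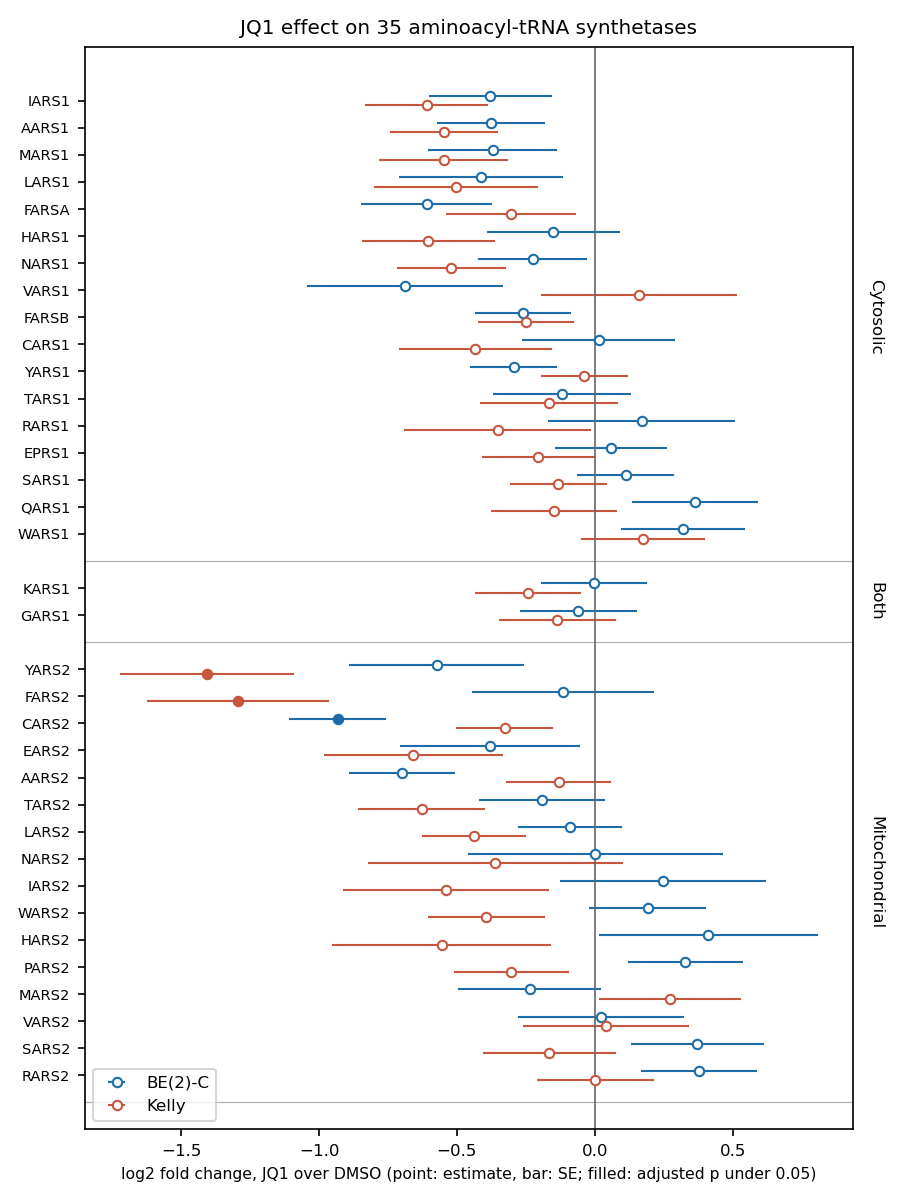
Log2 fold change of JQ1 over DMSO (x axis) for the 35 synthetases (rows, by compartment) in BE(2)-C (blue) and Kelly (red), with the SE as bars and filled points where the adjusted p is under 0.05. The 3 filled points are YARS2 and FARS2 in Kelly and CARS2 in BE(2)-C, all mitochondrial and all below 0.

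Averaged over both lines, 3 of 35 synthetases passed and all 3 were lower with JQ1, beside 11.1% of all genes in either direction, 7.04% lower and 4.02% higher. Estimates were below 0 in 28 of 35 members, beside 39.5% of all genes. The log2 fold change of YARS2 was -0.99 (SE 0.22; limma, adjusted p = 0.0119) and the call was kept in 21 of 21 other settings. In BE(2)-C alone it read 8.18, 8.498 and 8.18 with JQ1 and 8.34, 8.96 and 9.29 with DMSO, groups that overlapped, with a log2 fold change of -0.57. CARS2 fell by 0.63 (0.12 SE, limma, adjusted p = 0.00526). Of 21 other settings 2 ended this call, quantile normalization (-0.52, limma, adjusted p = 0.0533) and the mean of its probe sets (-0.24, adjusted p = 0.0954). In Kelly it read 8.14, 8.06 and 7.75 with JQ1 and 8.17, 8.12 and 8.63 with DMSO, which also overlapped. AARS1, the cytosolic alanine enzyme, fell by 0.46 (0.14 SE, limma, adjusted p = 0.0495), at the edge of the threshold. It read 8.94, 8.99 and 9.22 with JQ1 and 9.62, 9.43 and 9.22 with DMSO in BE(2)-C. In Kelly it read 8.51, 8.68 and 7.94 with JQ1 and 9.01, 8.87 and 8.89 with DMSO. AARS1 was below its DMSO arrays in every Kelly JQ1 array, whereas in BE(2)-C the third replicates met at 9.22. Its call was lost in 15 of 21 other settings, with adjusted p between 0.0164 and 0.154 over all of them (limma).

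No synthetase passed the test of the difference in the JQ1 effect, BE(2)-C minus Kelly, beside 0.557% of all genes, 0.116% lower and 0.441% higher. The estimate was below 0 in 8 of 35 members, beside 55.9% of all genes, with a members' median of 0.26. This count moved with the processing. Under quantile normalization it was 14, with a median of 0.11. Leaving out single arrays gave 6 without Kelly JQ1 replicate 1 (median 0.37) to 13 without Kelly JQ1 replicate 3 (median 0.06). At an unadjusted p under 0.05 there were 2, FARS2 and CARS2, beside 11.3% of all genes, and they pointed in opposite directions. For FARS2 the difference was 1.18 (0.47 SE, limma, adjusted p = 0.383). In BE(2)-C it read 7.89, 8.16 and 7.89 with JQ1 and 7.55, 8.26 and 8.48 with DMSO, with an estimate of -0.12. For CARS2 the difference was -0.61 (0.25 SE, limma, adjusted p = 0.396). YARS2 had a difference of 0.83, with a 95% interval of -0.14 to 1.80. The calls of single lines are thus not shown to be specific to a line.

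The counts of called synthetases moved with the arrays of highest control signal, namely BE(2)-C DMSO replicate 1 and the third replicates of both Kelly groups. Without these 3 arrays, 9 members passed in BE(2)-C, 11 in Kelly and 18 in the average, while 2565, 4502 and 5815 of the 18132 genes passed (14.1%, 24.8% and 32.1%). In Kelly the 9 added were the cytosolic IARS1, LARS1, MARS1, NARS1 and RARS1 and the mitochondrial HARS2, IARS2, NARS2 and TARS2, all lower. YARS2 was then lower in BE(2)-C as well, at -0.835 (limma, adjusted p = 0.00547), and IARS1 was lower in both lines, at -0.57 in BE(2)-C (adjusted p = 0.00896) and -0.79 in Kelly (adjusted p = 0.00215). Without Kelly DMSO replicate 3 alone, 5 members passed in Kelly, beside 2167 of all genes (12%). The part of the control signal in the JQ1 results was not tested beyond these values.

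The cytosolic and mitochondrial enzymes were described as 2 groups by their median in each array, after each gene's mean over the 12 arrays was subtracted. The cytosolic median was 0.002 ± 0.08 with JQ1 and 0.20 ± 0.19 with DMSO in BE(2)-C, and -0.22 ± 0.29 with JQ1 and 0.08 ± 0.24 with DMSO in Kelly (SD, n = 3 each). The mitochondrial median was 0.01 ± 0.10 with JQ1 and 0.03 ± 0.17 with DMSO in BE(2)-C, and -0.17 ± 0.38 with JQ1 and 0.23 ± 0.09 with DMSO in Kelly (SD, n = 3 each). Neither compartment separated JQ1 from DMSO arrays in BE(2)-C. In Kelly the mitochondrial medians were 0.06, 0.04 and -0.61 with JQ1, against 0.23, 0.33 and 0.15 with DMSO, and did not overlap. The Kelly cytosolic medians were -0.04, -0.05 and -0.56 with JQ1, against 0.26, 0.18 and -0.18 with DMSO, and overlapped. Within the 3 same-numbered Kelly pairs both were lower with JQ1 each time, JQ1 minus DMSO being -0.30, -0.23 and -0.37 for the cytosolic and -0.17, -0.29 and -0.76 for the mitochondrial median. Replicate 3 of Kelly with JQ1 was the lowest array for both compartments, and it also had the highest control signal of the 12 arrays, 13.65.

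**Figure D3:**
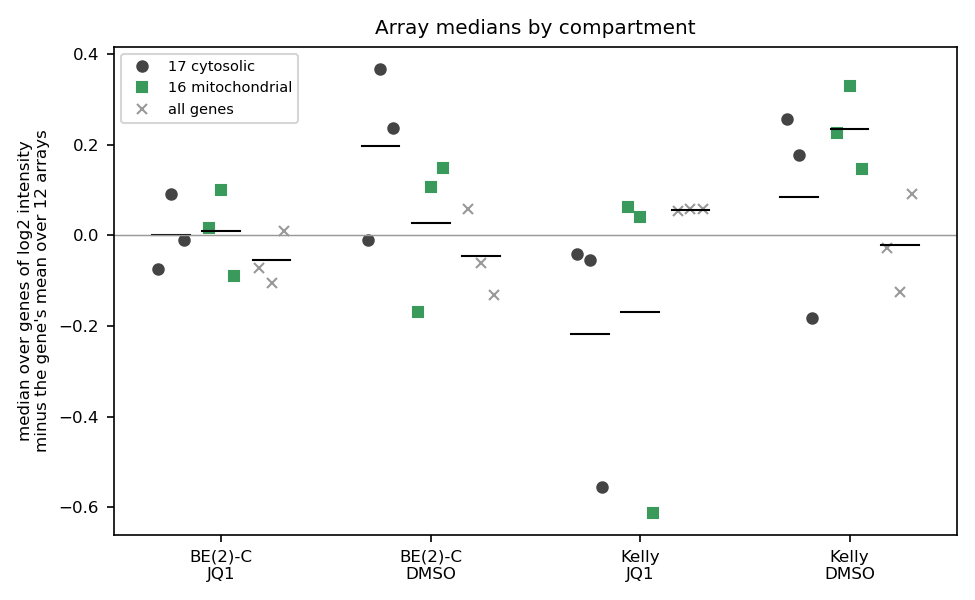
Median over 17 cytosolic (circles), 16 mitochondrial (squares) and all genes (crosses) of the log2 intensity minus each gene's mean over the 12 arrays (y axis), 1 point per array, with group means as black lines. The arrays of all genes stay between -0.13 and 0.09, while Kelly JQ1 replicate 3 reaches -0.56 for the cytosolic and -0.61 for the mitochondrial enzymes.

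The median JQ1 effect of the 2 compartments was set side by side without a test. It was -0.23 for cytosolic and -0.04 for mitochondrial enzymes in BE(2)-C, and -0.30 and -0.38 in Kelly. The cytosolic minus mitochondrial difference of these medians was -0.18 in BE(2)-C, 0.07 in Kelly and -0.09 in the average of the lines. The range over members was wider for the mitochondrial enzymes. Cytosolic estimates lay between -0.69 and 0.36 in BE(2)-C and between -0.61 and 0.17 in Kelly. Mitochondrial ones lay between -0.93 and 0.41 in BE(2)-C and between -1.41 and 0.27 in Kelly.

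Enzymes for the same amino acid allow a comparison across compartments, in 17 pairs, with FARS2 and EPRS1 in 2 pairs each. The mitochondrial enzyme had the more negative JQ1 estimate in 6 of 17 pairs in BE(2)-C and 9 of 17 in Kelly. Tyrosine showed the widest gap in Kelly, -1.41 for YARS2 and -0.04 for the cytosolic YARS1. YARS1 read 10.07, 9.94 and 10.31 with JQ1 and 10.14, 9.98 and 10.32 with DMSO, so its arrays were interleaved where those of YARS2 were apart. Phenylalanine followed, with -1.29 for FARS2, -0.30 for FARSA and -0.25 for FARSB. FARSA read 9.13, 9.22 and 8.30 with JQ1 and 9.22, 8.94 and 9.41 with DMSO. FARSB read 10.62, 10.49 and 10.34 and 10.93, 10.85 and 10.42. Both subunits overlapped between JQ1 and DMSO in Kelly. On the brightest probe sets their order was turned in BE(2)-C, with -0.12 for FARS2, -0.61 for FARSA and -0.26 for FARSB. For FARSB the order depended on the probe set. Its probe sets with mean levels of 10.25, 9.98 and 9.86 had -0.625, -0.582 and -0.787 in Kelly, and -0.152, -0.078 and -0.159 in BE(2)-C. A dim FARSB probe set, at 5.35, had -0.137 in Kelly and -0.377 in BE(2)-C. The dimmer FARS2 probe set had -0.815 in Kelly and -0.175 in BE(2)-C. In BE(2)-C FARSA read 8.95, 9.03 and 9.17 with JQ1 and 9.94, 9.60 and 9.43 with DMSO, without overlap (limma, adjusted p = 0.206).

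Cysteine had the widest gap in BE(2)-C, -0.93 for CARS2 and 0.01 for the cytosolic CARS1. CARS1 read 7.99, 8.23 and 8.08 with JQ1 and 8.0, 8.08 and 8.18 with DMSO. Methionine ran the other way in Kelly on the brightest probe sets, 0.27 for MARS2 and -0.55 for the cytosolic MARS1. Dimmer probe sets of MARS2, with mean levels of 6.23 and 6.22, had -0.613 and -0.022 in Kelly. MARS2 read 9.32, 9.38 and 8.999 with JQ1 and 8.94, 8.53 and 9.42 with DMSO, and MARS1 read 9.44, 9.59 and 8.73 and 9.94, 10.04 and 9.43. Both overlapped, and neither passed. Valine and isoleucine stood out in BE(2)-C for a lower cytosolic enzyme. VARS1 read 9.004, 8.78 and 9.55 with JQ1 and 10.62, 9.49 and 9.29 with DMSO, an estimate of -0.69, beside 0.02 for VARS2. VARS2 read 8.03, 7.93 and 8.34 and 8.52, 7.80 and 7.91, and replicate 1 of the DMSO group was the highest of its group in both genes. IARS1 had -0.38 beside 0.25 for IARS2, which read 10.57, 10.83 and 10.22 with JQ1 and 9.51, 10.63 and 10.74 with DMSO. Replicate 1 of the DMSO group was here the low one, and it had the highest control signal of the BE(2)-C arrays, 12.92. The slope on that signal was 0.39 per log2 unit for VARS1 and -0.42 for IARS2, and VARS1 was the only member with a positive slope that passed. No difference within a pair was tested.

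**Figure D4:**
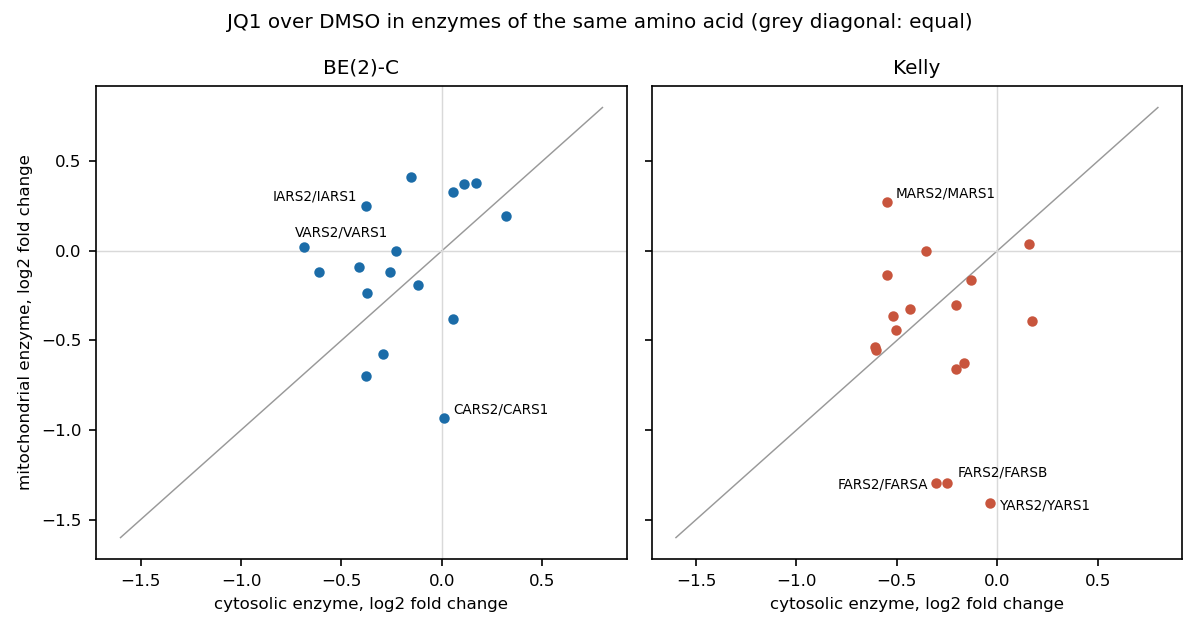
JQ1 over DMSO log2 fold change of the cytosolic enzyme (x axis) and of the mitochondrial enzyme for the same amino acid (y axis) in BE(2)-C (left) and Kelly (right), 17 pairs each, labelled where the 2 differ by over 0.6. Points below the grey diagonal, 6 in BE(2)-C and 9 in Kelly, have the more negative value in the mitochondrial enzyme.

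The 7 measured enzymes of the multi-synthetase complex, EPRS1, IARS1, LARS1, MARS1, QARS1, RARS1 and KARS1, gave 0 calls for JQ1 in either line, with 0 in BE(2)-C and 2 in Kelly at an unadjusted p under 0.05, beside 15.3% and 22.5% of all genes. Their estimates were below 0 in 4 of 7 in BE(2)-C, with a median of -0.004, and in 7 of 7 in Kelly, with a median of -0.35. The difference of the JQ1 effect, BE(2)-C minus Kelly, lay between 0.09 and 0.52 in all 7, and none passed. The 11 cytosolic enzymes outside the complex had medians of -0.23 in BE(2)-C and -0.25 in Kelly. The slope on the hybridization control signal passed in 5 of the 7, all negative, and in 3 of the 11, with 2 negative. Over all genes 53.4% passed for this slope, and the part of the signal in these medians was not tested. EPRS1, the fused glutamate and proline enzyme, read 11.39, 11.61 and 11.34 with JQ1 and 10.99, 11.56 and 11.60 with DMSO in BE(2)-C. Its Kelly arrays read 11.53, 11.54 and 11.39 with JQ1 and 11.70, 12.01 and 11.36 with DMSO, and neither line separated the treatments. KARS1 and GARS1, which serve both compartments, had estimates of 0.00 and -0.06 in BE(2)-C and -0.24 and -0.14 in Kelly. By catalytic fold, 13 of 18 class I and 16 of 16 class II enzymes were below 0 in Kelly, with medians of -0.37 and -0.30 (EPRS1 holds both folds and was left out).

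Promoter windows of 250 bases before to 50 after the transcription start were taken from RefSeq on GRCh38.p14 and matched 30 of 35 members by symbol. They were searched for 2 strings of letters. CACGTG, the E-box that MYC-family dimers bind, reads the same on both strands, and TGATGNAA, the core of the element that ATF4 binds with a C/EBP partner, was sought on both strands. CACGTG stood in 4 of 30 member windows (13.3%), beside 7.43% of all 27305 windows: CARS2, EARS2, IARS1 and MARS2. TGATGNAA stood in 7 of 30 (23.3%), beside 3.67% of all windows: AARS1, CARS1, IARS1, MARS1, NARS1, TARS1 and YARS2. These were 6 of 14 cytosolic and 1 of 14 mitochondrial windows, and no match of one string overlapped a match of the other. A match describes the letters and is not evidence of binding.

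The windows of the members called for JQ1 that hold a match, and that of IARS1, which holds both, are shown with the matches in capitals. YARS2 lies on chr12:32755848-32756147, minus strand, with TGATGGAA at position -197 from the start site. CARS2 lies on chr13:110706466-110706765, minus strand, with CACGTG at -3. IARS1 lies on chr9:92293648-92293947, minus strand, with CACGTG at -186 and the reverse complement of TGATGCAA at -13. AARS1 lies on chr16:70289457-70289756, minus strand, with the reverse complement of TGATGCAA at -187. Positions are those of the leftmost base of a match, and each window is printed 5′ to 3′ on the strand of its gene.
YARS2: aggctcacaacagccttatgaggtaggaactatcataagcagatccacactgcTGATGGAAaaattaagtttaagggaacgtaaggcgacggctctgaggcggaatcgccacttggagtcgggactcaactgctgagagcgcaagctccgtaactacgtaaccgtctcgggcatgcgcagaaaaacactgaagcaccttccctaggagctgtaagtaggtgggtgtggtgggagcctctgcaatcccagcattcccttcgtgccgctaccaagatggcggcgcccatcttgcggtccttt
CARS2: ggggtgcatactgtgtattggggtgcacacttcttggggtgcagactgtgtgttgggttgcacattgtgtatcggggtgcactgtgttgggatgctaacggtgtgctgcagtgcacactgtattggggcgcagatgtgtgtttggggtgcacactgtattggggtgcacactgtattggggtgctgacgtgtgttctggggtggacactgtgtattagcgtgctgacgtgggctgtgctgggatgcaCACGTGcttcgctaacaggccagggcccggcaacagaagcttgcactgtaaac
IARS1: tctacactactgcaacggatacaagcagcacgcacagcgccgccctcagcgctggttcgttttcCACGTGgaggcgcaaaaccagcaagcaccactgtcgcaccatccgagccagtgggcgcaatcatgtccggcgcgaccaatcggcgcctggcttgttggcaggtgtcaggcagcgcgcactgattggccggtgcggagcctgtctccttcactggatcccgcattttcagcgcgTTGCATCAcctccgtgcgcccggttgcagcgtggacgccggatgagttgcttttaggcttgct
AARS1: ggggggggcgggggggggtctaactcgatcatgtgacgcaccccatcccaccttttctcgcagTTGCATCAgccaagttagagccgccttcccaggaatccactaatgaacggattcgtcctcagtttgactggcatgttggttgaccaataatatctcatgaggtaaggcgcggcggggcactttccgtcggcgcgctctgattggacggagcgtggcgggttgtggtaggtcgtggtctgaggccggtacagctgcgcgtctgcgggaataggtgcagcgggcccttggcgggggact

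The JQ1 estimates of members with and without these letters are set side by side without a test. Match and compartment were not separated: 6 of the 7 members with TGATGNAA are cytosolic, and 3 of the 4 with CACGTG are mitochondrial. In BE(2)-C the compartments themselves had medians of -0.23 (cytosolic) and -0.04 (mitochondrial). The 7 members with TGATGNAA had a median of -0.37 in BE(2)-C, with 6 of 7 below 0, and -0.55 in Kelly, with 7 of 7 below 0. The 23 without it had 0.002 in BE(2)-C and -0.30 in Kelly, with 11 and 20 below 0. The 4 with CACGTG had -0.38 in BE(2)-C and -0.47 in Kelly, and the 26 without it had -0.001 and -0.36. Of the members with TGATGNAA, NARS1 charges asparagine and TARS1 threonine in the cytosol. NARS1 read 10.90, 10.72 and 10.61 with JQ1 and 11.46, 11.46 and 10.86 with DMSO in Kelly, an estimate of -0.52. TARS1 read 11.37, 11.30 and 11.18 and 11.56, 11.86 and 10.94, an estimate of -0.17. In both genes only replicate 3 of the DMSO group fell within or below the JQ1 values.

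The histidine enzymes are neighbours that point away from each other, HARS1 on the minus and HARS2 on the plus strand of chromosome 5. Their starts lie 85 bases apart, so that their windows share 184 bases, chr5:140691321-140691504. Both starts lie within this stretch, which is printed here from the plus strand.
HARS1/HARS2 overlap: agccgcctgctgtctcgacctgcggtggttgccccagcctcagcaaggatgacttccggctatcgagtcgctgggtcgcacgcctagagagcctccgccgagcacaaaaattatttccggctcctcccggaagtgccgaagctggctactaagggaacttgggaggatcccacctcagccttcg
HARS1 read 9.83, 10.04 and 9.75 with JQ1 and 9.80, 10.10 and 10.17 with DMSO in BE(2)-C, an estimate of -0.15. HARS2 read 7.57, 8.07 and 7.49 with JQ1 and 6.59, 7.64 and 7.66 with DMSO, an estimate of 0.41 (0.40 SE). The value of HARS2 turned on replicate 1 of the DMSO group. In Kelly HARS2 read 7.35, 7.25 and 6.40 and 7.84, 8.15 and 6.67, an estimate of -0.56 beside -0.60 for HARS1. Neither gene passed in either line. In all, the windows of 10 members overlapped that of a gene on the opposite strand. Among these, FARS2 shared 156 bases with LYRM4, a gene of iron-sulfur cluster assembly, and SARS2 shared 280 with MRPS12, a mitochondrial ribosomal protein gene.

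Between the lines, 3 of 35 synthetases passed for BE(2)-C against Kelly with DMSO, beside 15.1% of all genes, 7.89% lower and 7.2% higher. The ACTB 3′ minus 5′ signal was also lower in BE(2)-C than in Kelly on average, and its part in these results was not tested. WARS1, the cytosolic tryptophan enzyme and a known interferon-induced gene, and IARS1 were higher in BE(2)-C, and LARS2, the mitochondrial leucine enzyme, was lower. WARS1 read 9.31, 9.496 and 9.46 in BE(2)-C with DMSO and 7.67, 7.78 and 7.24 in Kelly with DMSO. Every BE(2)-C array was above every Kelly array by more than 1 log2 unit, and the level was 3.63-fold higher in BE(2)-C (log2 1.86, 0.23 SE, limma, adjusted p = 7.84e-05). With JQ1 it read 9.60, 9.77 and 9.85 in BE(2)-C and 8.03, 7.998 and 7.18 in Kelly, a 4.01-fold difference (limma, adjusted p = 4.21e-05). Both WARS1 calls were kept in 20 of 20 other settings. IARS1 was 1.74-fold higher in BE(2)-C with DMSO (limma, adjusted p = 0.0278) and 2.04-fold higher with JQ1 (adjusted p = 0.00519). Its BE(2)-C arrays read 11.82, 11.79 and 11.74 with JQ1 and 11.79, 12.46 and 12.24 with DMSO, all above every Kelly array. The call with DMSO was lost without Kelly DMSO replicate 3 (adjusted p = 0.0888), BE(2)-C DMSO replicate 2 (0.135) or BE(2)-C DMSO replicate 3 (0.0893).

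LARS2 read 7.77, 7.75 and 7.32 in BE(2)-C and 8.32, 8.12 and 8.56 in Kelly with DMSO. The lines did not overlap, with a log2 fold change of -0.72 (0.19 SE, limma, adjusted p = 0.019), and the call was lost without Kelly DMSO replicate 1, Kelly DMSO replicate 3 or BE(2)-C DMSO replicate 3 (adjusted p = 0.0598, 0.0645 and 0.0919). With JQ1, 6 members passed, beside 23.3% of all genes, 10.4% lower and 12.9% higher. AARS1, IARS1, WARS1 and FARS2 were higher in BE(2)-C, and VARS1 and AARS2 were lower. FARS2 was 2.11-fold higher in BE(2)-C with JQ1 (limma, adjusted p = 0.033), whereas with DMSO the estimate was -0.10. VARS1 read 9.004, 8.78 and 9.55 in BE(2)-C with JQ1 and 10.22, 10.53 and 10.19 in Kelly with JQ1, a log2 fold change of -1.20 (0.36 SE, limma, adjusted p = 0.0277). The AARS1 difference was 0.67 (adjusted p = 0.0254) and that of AARS2 -0.63 (adjusted p = 0.031). The calls of AARS1, VARS1, AARS2 and FARS2 with JQ1 were lost in 5, 5, 7 and 6 of 20 other settings.

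**Figure D5:**
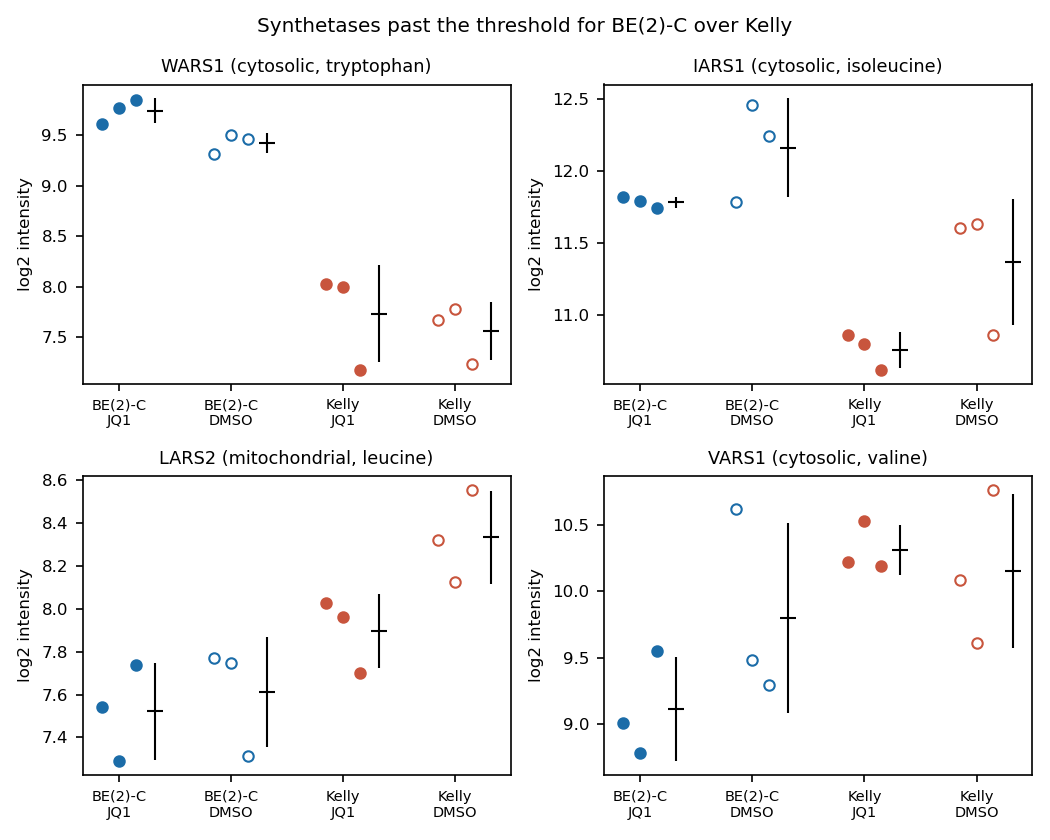
Log2 intensity of WARS1, IARS1, LARS2 and VARS1 in each array, by group (points, JQ1 filled and DMSO open), with the group mean and SD (black bar, n = 3). WARS1 and IARS1 are higher in all 6 BE(2)-C arrays than in any Kelly array, and LARS2 is lower in the 3 BE(2)-C DMSO arrays than in the 3 Kelly DMSO arrays.

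By compartment, the medians of the BE(2)-C against Kelly estimates were 0.23 for cytosolic and 0.11 for mitochondrial enzymes with JQ1, and 0.11 and -0.20 with DMSO. Over all genes the medians were -0.15 with JQ1 and -0.04 with DMSO. The estimate was below 0 in 11 of 35 members with JQ1 and 19 of 35 with DMSO, beside 62.7% and 55.5% of all genes. With JQ1 the lines did not overlap in 11 members with BE(2)-C higher and 2 with BE(2)-C lower, beside 20.6% and 29.3% of all genes. With DMSO this held for 4 and 3 members, beside 12.1% and 13.6% of all genes. Quantile normalization turned the members' median with JQ1 to -0.05, against 0.17 on the deposited values, so that no direction is given for the family between the lines.

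The 35 genes were read by 88 probe sets, 27 of them by more than 1. All probe sets naming 1 gene were also tested, and the share of them that passed was not recorded. The 4 of IARS1 gave nearly the same JQ1 estimate in Kelly, -0.61, -0.71, -0.70 and -0.76, and the last of these passed there (limma, adjusted p = 0.0406). In the average of the lines 3 of them passed (limma, adjusted p = 0.0451, 0.0388 and 0.0295). The dimmest LARS1 probe set passed in the average at -0.90 (adjusted p = 0.0398). Neither AARS1 probe set passed in the average (adjusted p = 0.065 and 0.0753). The second probe set of NARS1 passed in Kelly at -0.76 (adjusted p = 0.0406) where the brightest had -0.52. FARS2 had -1.29 and -0.82 in Kelly, and in this larger set of tests neither passed (adjusted p = 0.0515 and 0.187). CARS2 had -0.93 and -0.61 in BE(2)-C, and 0.19 on a dim probe set with a mean level of 4.04. WARS1 was higher in BE(2)-C with DMSO on 3 of its 4 probe sets, by 1.86, 1.86 and 1.28, and at 0.09 on the dimmest. YARS2 and LARS2 had 1 probe set each.

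Genes that work beside the synthetases were counted from lists of the tRNA and translation pathways. Of 10 scaffolds and relatives, 2 were lower with JQ1 in Kelly, 0 passed in BE(2)-C and 3 were lower in the average. Over all genes 4.73% were lower in Kelly, 4.69% passed in BE(2)-C and 7.04% were lower in the average. GATB and QRSL1, subunits of the mitochondrial enzyme that amidates glutamate joined to the glutamine tRNA, had Kelly estimates of -1.55 (limma, adjusted p = 0.000339) and -1.35 (adjusted p = 0.0296). AIMP1, a scaffold of the multi-synthetase complex, had -0.56 in the average (adjusted p = 0.00619). DTD2, which removes wrongly joined amino acids from tRNA, had -0.36 and did not pass. Of 36 genes of tRNA maturation and export, 4 were lower in BE(2)-C, 4 in Kelly and 5 in the average, and none was higher. The all-gene shares were 2.51%, 4.73% and 7.04% as lower, and 2.18%, 1.76% and 4.02% as higher. ADAT2, a subunit of the tRNA adenosine deaminase, had -1.36 in BE(2)-C and -1.03 in Kelly (adjusted p = 0.00889 and 0.0306). The methyltransferase gene TRMT1 had -0.83 and -1.13 (adjusted p = 0.0409 and 0.00568). PRORP, the mitochondrial tRNA-cutting nuclease, passed in Kelly at -1.52 (adjusted p = 0.00246), and the pseudouridine synthase gene PUS1 passed in BE(2)-C at -0.86 (adjusted p = 0.00778).

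None of 7 cytosolic elongation factors and none of 8 mitochondrial translation factors passed for JQ1 in either line or the average. Over all genes 4.69% passed in BE(2)-C, 6.5% in Kelly and 11.1% in the average. The medians of the 7 and the 8 factors were -0.03 and -0.17 in BE(2)-C and -0.18 and -0.55 in Kelly. The smallest p in the average belonged to EEF1A2, at -0.48 (limma, adjusted p = 0.0538), and to the initiation factor gene MTIF2, at -0.42 (adjusted p = 0.0829). Of 31 genes of the ATF4 amino acid response, 6 were lower and 4 higher in the average, beside 7.04% and 4.02% of all genes. The median of the 31 was -0.02, and ATF4 itself had -0.13 (limma, adjusted p = 0.586). The amino acid transporter subunits SLC7A5 and SLC3A2 were lower, at -0.70 and -0.62, and the transporter SLC38A2 and the stress sensor SESN2 were higher, at 0.56 and 0.64.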

How the data were processed

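Affymetrix PrimeView arrays, which read each gene with 1 or more sets of short probes, measured the RNA of 12 samples. The authors ran RMA, per the submitters' processing notes. RMA removes background, equalises the arrays and combines probes into probe sets. The sources used here do not give its version. The authors' deposited values are linear intensity. Log2 values had been assumed when the tests were planned, and log2 was therefore taken of every value, without an offset.

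Of 49395 probe sets, 44994 named 1 gene, and a gene was read from its brightest such probe set, which gave 18132 genes. A limma 3.58.1 model (R 4.3.3) held the 4 group means of each gene and used all 12 arrays. Two-sided p-values were adjusted for all genes of a contrast by Benjamini-Hochberg, and the threshold was 0.05. The fit was tested on simulated data. Figures were drawn with matplotlib 3.10.9.

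Members were set by the symbol rule and could all be named, with values per array for those called and those in a named pair, and up to 4 genes of each companion list were named by the smallest p in the average of the lines; ATF4 and the cell type markers named were added after their values were seen. Members and lists were chosen with earlier results of these data known, and the lists' counts support nothing by themselves. The hybridization control signal averages 9 probe sets on the log2 scale. No signal over background is given with the deposited values, so that a low level could not be told from no expression. The main fit left no gene out for a low level. The number of arrays limits the precision.

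Deviations of same-numbered JQ1 and DMSO arrays correlated across genes at 0.434, 0.228 and 0.515 in Kelly, where the labels' numbers pair the samples by the rule used, and at -0.071, 0.527 and -0.744 in BE(2)-C, where they do not. The design was kept without a block. Alternatives were another normalization, choice of probe set, filter, variance prior, offset, covariate, the replicate block, fewer arrays and leaving out each array.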

Additional observations from a re-analysis of the deposited data

How the results depend on the processing

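No called result turned its direction under any alternative, but values without a test did, among them the members' median between the lines with JQ1 under quantile normalization and the compartment difference in Kelly and in the average. Without the 3 arrays of highest control signal, 9 synthetases were called in BE(2)-C, 11 in Kelly and 18 in the average, beside 14.1%, 24.8% and 32.1% of all genes. The difference of the JQ1 effect then had 1 call (CARS2, at -0.82, limma adjusted p = 0.0405), beside 2.52% of all genes. Between the lines 6 were called with DMSO and 10 with JQ1, beside 22.5% and 36.3% of all genes. The causes of these counts were not tested. With that signal in the model the counts of called synthetases were 4 in BE(2)-C, 10 in the average and 9 between the lines with DMSO, beside 15.2%, 20.3% and 26.5% of all genes. Averaging all probe sets that name a gene gave 2 in BE(2)-C, 5 in the average and 6 between the lines with DMSO, beside 4.55%, 10.1% and 14.8% of all genes. In Kelly it lost FARS2 (limma, adjusted p = 0.0567) and gained MARS1 (-0.53, 0.0492). An offset of 16 gave 2 in BE(2)-C, beside 5.44% of all genes. Quantile normalization gave 5 between the lines with DMSO, beside 17.1% of all genes. The arrays of Kelly alone, which leave fewer samples, gave 0 in Kelly, with YARS2 and FARS2 at adjusted p = 0.0561 and 0.094 (limma). The all-gene share of that fit was not recorded, so its count has no background beside it. In the fit over all arrays 9 members had an unadjusted p under 0.05 in Kelly, beside 22.5% of all genes. The replicate block gave 5 in the average, beside 11.6% of all genes. It added IARS1 (limma, adjusted p = 0.0486), MARS1 (0.0302) and FARS2 (0.013) and lost AARS1 (0.0687). No call within a line or in the difference changed with the block. Between the lines no paired analysis was possible because the replicate numbers do not join arrays of different lines. The cytosolic minus mitochondrial median was -0.053 in Kelly without the 3 arrays and -0.063 in BE(2)-C with probe sets without a shared-probe suffix.

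Leaving out each array in turn gave 0 to 2 calls in BE(2)-C, 0 to 5 in Kelly, 2 to 7 in the average, 0 in the difference throughout, 1 to 5 between the lines with DMSO and 2 to 8 with JQ1. The all-gene shares also moved, over 1.78% to 6.67% in BE(2)-C, 3.33% to 12% in Kelly and 7.5% to 13.6% in the average. They were 0.215% to 1.17% in the difference, and between the lines 10.8% to 17.4% with DMSO and 14.1% to 29.3% with JQ1. The count was 0 in BE(2)-C without its JQ1 replicate 1 (1.78% of all genes). It was 7 in the average without Kelly DMSO replicate 3 (13.3%), and 1 between the lines with DMSO without BE(2)-C DMSO replicate 3 (11.7%). The compartment difference ranged over -0.21 to -0.09 in BE(2)-C, -0.01 to 0.19 in Kelly and -0.19 to 0.02 in the average. The SE of a member's JQ1 effect had a median of 0.23, which limits what 3 arrays a group can show for changes of the size seen in most members.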
